A study of Homo sapiens with 15 samples.

Results

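The chemokine ligands are the genes whose protein names carry CXCL or CCL with a number, together with CX3CL1, XCL1 and XCL2. All transcript clusters annotated to 1 such symbol were taken, with CXCL8 also accepted under its older name IL8. This gave 38 genes, each with 1 transcript cluster (the probes of a gene, summarized to 1 value), out of 21448 transcript clusters on the array. Of the 38, 14 were CXCL genes, 21 were CCL genes and 3 belonged to the CX3C and C families.

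The cells were MG-63, a human osteosarcoma line with osteoblast-like features, kept in DMEM with 10% FCS. They were grown either on uncoated titanium (Ti-Ref) or on titanium carrying trimethoxysilylpropyl modified poly(ethyleneimine), an amine-rich polymer nanocoating (Ti-TMS-PEI), and RNA of the cells attached to the chips was hybridised to Clariom S arrays. There were 4 arrays of each surface after 4 h (A to D), and after 24 h there were 4 arrays of Ti-TMS-PEI (A to D) against 3 of Ti-Ref (A to C), since the authors had dropped 1 further Ti-Ref array for its labelling controls. The culture experiments are described as independent, but the same methods also speak of technical replicates, so the p-values measure the spread between these arrays only.

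Chemokines are small secreted proteins that steer migrating cells along a gradient by binding G protein-coupled receptors on their surface. The families are named after the spacing of conserved cysteines, and each receptor draws a different set of cells: CXCR1 and CXCR2 neutrophils, CXCR3 activated T cells, CCR2 monocytes, CCR3 eosinophils. In bone, cells of the osteoblast lineage are a source of CCL2, which attracts monocytes and osteoclast precursors, of CXCL8 and of CXCL12, which holds blood-forming stem cells in the marrow. Transcription of many inflammatory chemokines is driven by NF-kappaB and AP-1, that of CXCL9, CXCL10 and CXCL11 also by interferons, and that of CCL26 by IL-4 and IL-13 through STAT6.

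The promoters of 4 ligands that the results turn on are shown because the factors known to drive these genes bind near the start site. Each run holds 250 bases before the RefSeq start site and 50 bases from it on, in the sense of the gene (GRCh38.p14), and capitals mark matches to any of 4 motifs searched on both strands. The motifs were NF-kappaB (GGNNTTTCC), AP-1 (TGANTCA), the interferon-stimulated response element or ISRE (TTTC and TTTC with 2 free bases between them) and a STAT element (TTC and GAA with 4 free bases between them).
CCL26 (chr7:75789697-75789996, minus strand): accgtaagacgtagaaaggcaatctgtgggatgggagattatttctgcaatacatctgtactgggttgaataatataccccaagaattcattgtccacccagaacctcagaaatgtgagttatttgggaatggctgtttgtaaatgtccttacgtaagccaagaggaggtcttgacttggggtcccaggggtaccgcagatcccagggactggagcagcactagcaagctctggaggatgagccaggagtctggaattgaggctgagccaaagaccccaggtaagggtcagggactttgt
CXCL10 (chr4:76023448-76023747, minus strand): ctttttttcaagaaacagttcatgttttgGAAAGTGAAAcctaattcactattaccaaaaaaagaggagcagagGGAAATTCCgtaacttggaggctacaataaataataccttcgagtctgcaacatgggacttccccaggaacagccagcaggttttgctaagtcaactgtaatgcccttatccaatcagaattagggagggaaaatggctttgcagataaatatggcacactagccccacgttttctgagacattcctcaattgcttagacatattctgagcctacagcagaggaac
CXCL1 (chr4:73869143-73869442, plus strand): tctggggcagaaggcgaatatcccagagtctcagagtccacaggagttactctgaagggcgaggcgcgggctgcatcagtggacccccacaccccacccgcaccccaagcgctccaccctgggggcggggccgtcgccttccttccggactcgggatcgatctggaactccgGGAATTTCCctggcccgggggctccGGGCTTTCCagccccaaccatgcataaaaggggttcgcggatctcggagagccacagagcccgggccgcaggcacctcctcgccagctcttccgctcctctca
CXCL8 (chr4:73740319-73740618, plus strand): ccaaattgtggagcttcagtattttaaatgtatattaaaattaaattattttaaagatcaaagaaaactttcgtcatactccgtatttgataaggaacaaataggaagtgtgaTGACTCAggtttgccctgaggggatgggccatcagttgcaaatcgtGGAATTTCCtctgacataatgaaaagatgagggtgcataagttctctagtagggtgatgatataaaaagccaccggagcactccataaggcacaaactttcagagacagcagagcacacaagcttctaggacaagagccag
Counting the base just before the start site as -1, the CXCL10 promoter held an ISRE match from -221 and an NF-kappaB match from -176. The CXCL1 promoter held NF-kappaB matches from -78 and from -53, and that of CXCL8 an AP-1 match from -137 and an NF-kappaB match from -91. No matches overlapped, and the CCL26 window held none of these letters. For CCL26 the search covered this window alone, so it does not show whether a STAT element lies elsewhere or at another start site.
A promoter was at hand for 29 of the 38 ligands. The NF-kappaB letters were in 9 of the 29, namely those of CXCL1, CXCL2, CXCL3, CXCL5, CXCL6, CXCL8, CXCL10, CXCL11 and CCL20, and in 6.26% of 35097 human promoters of this length. The AP-1 letters were in 7 of the 29 and in 7.71% of all promoters. The ISRE letters were found in the promoters of CXCL9 and CXCL10 and in 3.58% of all promoters, and the STAT letters in that of CXCL17 and in 6.44%. Each ligand was searched in 1 window, while a gene with several start sites can count more than once among all promoters. These are letter matches and not measured binding.

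Values are log2 signals, so a difference of 1 is a doubling. The median over all transcript clusters lay between 5.79 and 5.86 on the arrays of 4 h. On those of 24 h it lay between 6.70 and 6.79. The times may have been normalized separately, which the methods do not state, so signals are compared only within a time. The files hold no detection calls. A ligand was counted as above background when, on at least 1 surface, every array exceeded the 95th percentile of 349 olfactory receptor transcript clusters, genes silent in most tissues; this level was 4.39 to 4.64 on the arrays of 4 h and 5.10 to 5.27 on those of 24 h. Dim signals can be compressed, so fold changes near this level may be understated, which was not tested. Of the osteoblast lineage markers, COL1A1, COL1A2, SPARC and RUNX2 were above background on all 15 arrays, ALPL on 7, and SP7, SPP1 and IBSP on none. Of 9 leukocyte markers measured, CD14, CD79A and CSF1R were above background on all 15 arrays, the pan-leukocyte gene PTPRC on 5, CD3E on 3, NKG7 on 11 and CD3D, ITGAM and LYZ on none. The mean over the leukocyte list was 4.30 to 4.54 on Ti-Ref and 4.37 to 4.56 on Ti-TMS-PEI at 4 h, and 5.26 to 5.52 and 5.21 to 5.55 at 24 h. No cell type other than MG-63 is described in these cultures. In bulk RNA, fewer expressing cells and less RNA per cell cannot be told apart.

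By this measure 17 ligands were above background at 4 h and 18 at 24 h. Both times shared 14 of them: CXCL1, CXCL2, CXCL3, CXCL6, CXCL8, CXCL10, CXCL12, CXCL16, CCL2, CCL5, CCL7, CCL19, CCL27 and CCL28. CCL18, CCL20 and CX3CL1 were above background only in the arrays of 4 h, and CXCL5, CXCL17, CCL25 and CCL26 only in those of 24 h. Of the 21 ligands, 10 exceeded the level on every array of both surfaces and both times: CXCL2, CXCL6, CXCL8, CXCL12, CXCL16, CCL2, CCL5, CCL19, CCL27 and CCL28. A stricter level, the 99th percentile, left 8 ligands at 4 h and 11 at 24 h. The other 17 ligands were above background at neither time, with single signals from 2.41 to 4.79 at 4 h and from 2.90 to 5.43 at 24 h. Averaged over the surfaces, the lowest of these at both times was XCL2, a T and NK cell chemokine, with means of 2.97 on Ti-Ref and 2.67 on Ti-TMS-PEI at 4 h and of 3.45 and 3.20 at 24 h. The highest at both times was the Th2-attracting CCL17, with means of 4.48 and 4.34 at 4 h and of 5.16 and 5.14 at 24 h.

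limma models compared the surfaces at each time, over all 21448 transcript clusters. A gene is called here where the fold change exceeded 1.5 and both p and the Benjamini-Hochberg adjusted p were under 0.05. After 4 h none of the 38 ligands was called, and 9 of all transcript clusters were, which is 0.042%. At an unadjusted p under 0.05 there were 6 ligands with a positive and 1 with a negative log2 fold change, against 4.40% and 5.06% of all transcript clusters. The arrays of the surfaces did not overlap for 3 ligands, CXCL8, CXCL10 and CCL7, all with higher signals on Ti-TMS-PEI, and for 5.77% of all transcript clusters. After 24 h, 5 ligands were called. CCL26 was higher on Ti-TMS-PEI (1 of 38, against 3.46% of all), and CXCL10, CCL2, CXCL1 and CCL5 were lower (4 of 38, against 2.69%). The arrays did not overlap for 7 ligands, a property shared by 23.5% of all transcript clusters at 24 h.
The median log2 fold change over the 38 ligands was 0.05 at 4 h and -0.09 at 24 h, against -0.01 and -0.00 over all transcript clusters. The median size of the change regardless of sign was 0.20 for the ligands and 0.13 for all at 4 h, and 0.20 and 0.17 at 24 h.

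**Figure D1:**
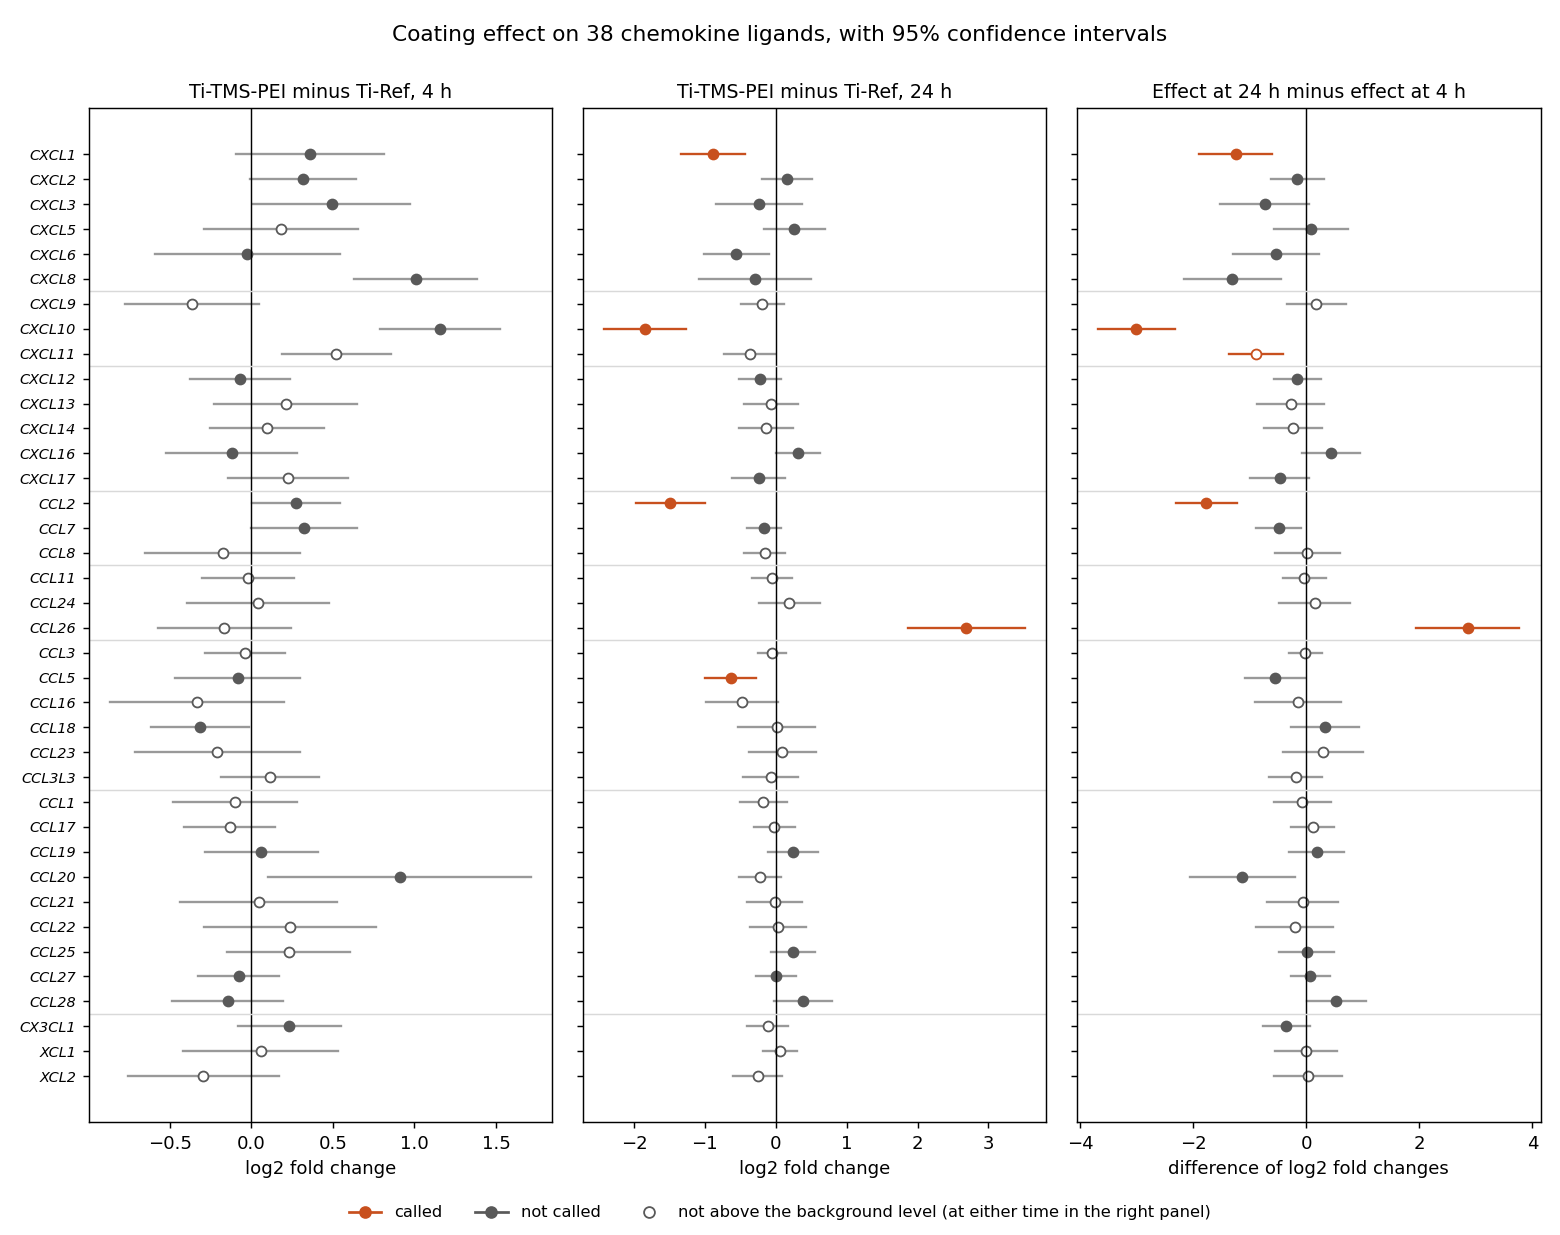
Log2 fold change of each of the 38 ligands between Ti-TMS-PEI and Ti-Ref at 4 h (left) and 24 h (middle), and the difference between those effects (right), with 95% confidence intervals from limma; orange marks called ligands and open circles those not above background. No interval is orange at 4 h, 5 are at 24 h and 5 in the right panel, and CXCL10 lies right of 0 at 4 h and left of 0 at 24 h.

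CCL26 (eotaxin-3, which draws eosinophils through CCR3) had the largest change of any ligand at 24 h. Its log2 signal was 7.78, 7.26 and 7.56 on the Ti-Ref arrays A to C and 11.22, 10.37, 9.37 and 9.93 on the Ti-TMS-PEI arrays A to D. Every coated array lay above every uncoated one, with array C the closest to Ti-Ref. The means were 10.22 ± 0.78 (SD, n = 4) and 7.53 ± 0.26 (SD, n = 3), a log2 fold change of 2.69 (SE 0.37, 95% confidence interval 1.86 to 3.52, adjusted p = 0.00405 by limma) or 6.45-fold. At 4 h the gene was not above background. It gave 5.00, 4.93, 5.27 and 4.39 on Ti-Ref against 4.82, 4.48, 4.90 and 4.73 on Ti-TMS-PEI, with overlapping surfaces and no call (log2 fold change -0.17, adjusted p = 0.815).
The other eotaxins were not called. CCL24 (eotaxin-2), the gene next to CCL26 on chromosome 7, was below background at both times; its log2 fold change at 24 h was 0.19 (95% confidence interval -0.24 to 0.62, adjusted p = 0.60). For CCL11 (eotaxin) it was -0.05 (adjusted p = 0.845).

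**Figure D2:**
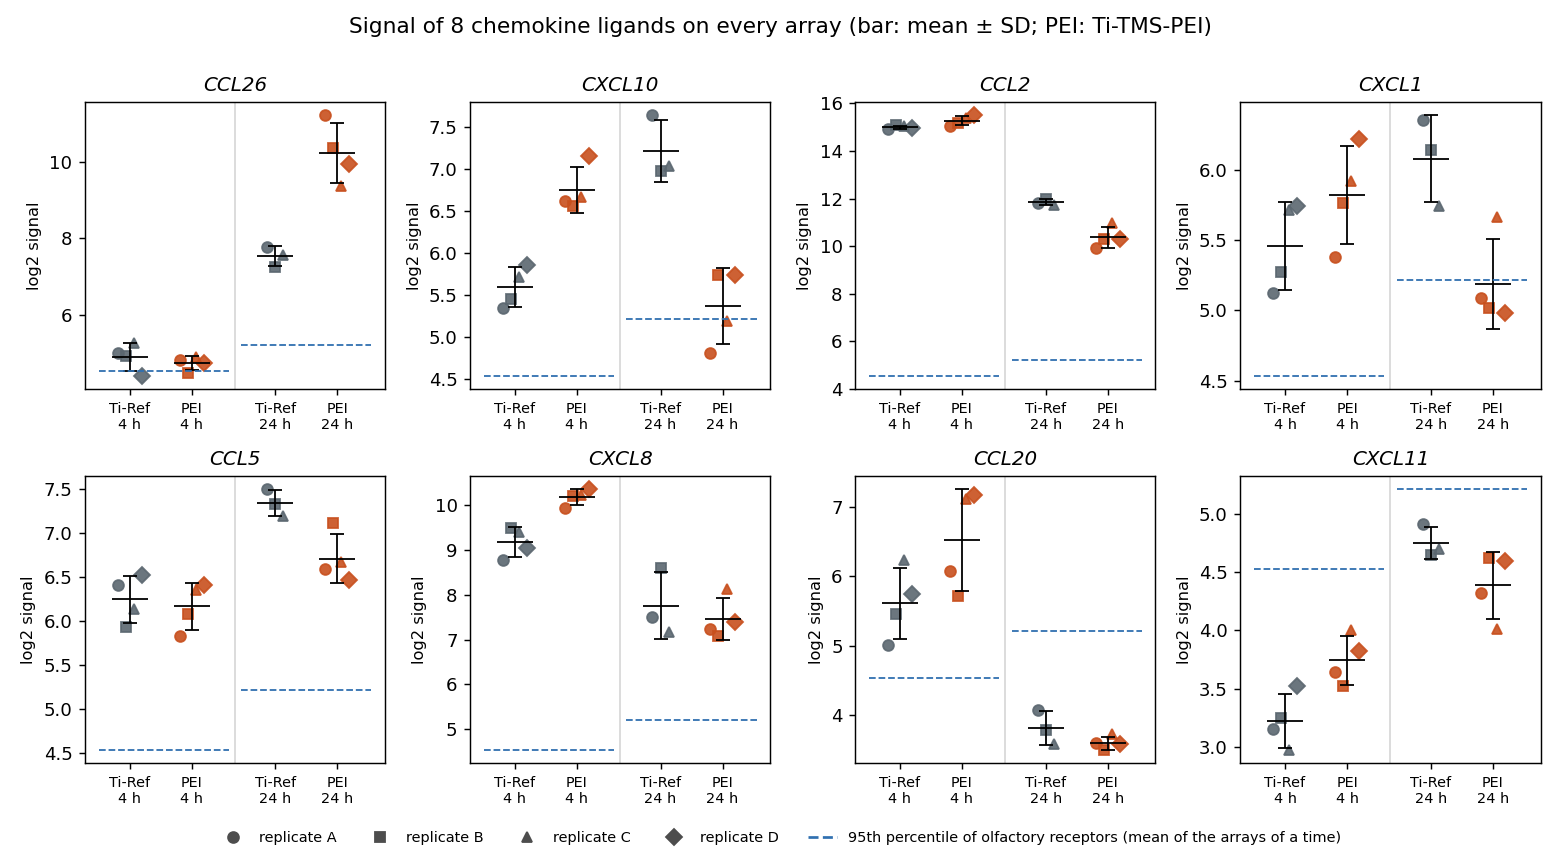
Log2 signal of 8 ligands on every array, by surface and time; horizontal bars are means, error bars SDs (n = 4, n = 3 for Ti-Ref at 24 h) and dashed lines the mean background level of the arrays of a time. The Ti-TMS-PEI points of CCL26 all sit above Ti-Ref at 24 h, those of CXCL10 sit above Ti-Ref at 4 h and below it at 24 h, and those of CCL2, CXCL1 and CCL5 sit below Ti-Ref at 24 h.

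CXCL10 (IP-10, which attracts activated T cells through CXCR3) had non-overlapping surfaces at both times, in opposite order. After 4 h it gave 5.34, 5.45, 5.71 and 5.86 on Ti-Ref and 6.62, 6.56, 6.66 and 7.15 on Ti-TMS-PEI. The coated arrays were all higher, and the log2 fold change of 1.16 (SE 0.17, 95% confidence interval 0.79 to 1.53) had a raw p of 4.05e-05 but an adjusted p of 0.062, so it was not called. After 24 h the signal was 7.64, 6.97 and 7.03 on Ti-Ref and 4.81, 5.74, 5.19 and 5.74 on Ti-TMS-PEI. Here all coated arrays were lower, and arrays A and C were under the background level of about 5.2 that applied to them. The log2 fold change was -1.84 (SE 0.26, adjusted p = 0.00424 by limma), or 3.59-fold lower.
CXCL11, its neighbour on chromosome 4 and also a CXCR3 ligand, was not above background at either time. Its signal after 4 h was 3.15, 3.25, 2.97 and 3.52 on Ti-Ref and 3.64, 3.52, 4.00 and 3.82 on Ti-TMS-PEI, which touched at 3.52. After 24 h it was 4.91, 4.65 and 4.70 against 4.32, 4.62, 4.01 and 4.60, without overlap and with the coated arrays lower. The log2 fold changes of 0.52 at 4 h (adjusted p = 0.334) and -0.37 at 24 h (adjusted p = 0.201) were not called. CXCL9, the remaining CXCR3 ligand, was also below background, with log2 fold changes of -0.36 and -0.19.

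CCL2 (MCP-1, the main monocyte attractant) was the called ligand with the tightest uncoated arrays. Its signal at 24 h was 11.83, 11.99 and 11.74 on Ti-Ref and 9.92, 10.30, 10.96 and 10.28 on Ti-TMS-PEI. All coated arrays were lower and array C again came closest to Ti-Ref. The means were 11.85 ± 0.13 (SD, n = 3) and 10.37 ± 0.43 (SD, n = 4), and the log2 fold change was -1.49 (SE 0.21, adjusted p = 0.00474 by limma), 2.81-fold lower. At 4 h the values were 14.91, 15.07, 15.03 and 14.97 on Ti-Ref against 15.05, 15.16, 15.37 and 15.50 on Ti-TMS-PEI. The surfaces overlapped, and the log2 fold change of 0.28 was not called (adjusted p = 0.518).
CCL7, the neighbouring CCR2 ligand on chromosome 17, stayed close to background. At 4 h it gave 4.71, 4.28, 4.62 and 4.51 on Ti-Ref and 4.74, 4.74, 5.20 and 4.73 on Ti-TMS-PEI, so the coated arrays were all higher, by as little as 0.02 between the nearest arrays. At 24 h the signal was 5.70, 5.73 and 5.64 against 5.60, 5.65, 5.54 and 5.32. Neither the log2 fold change of 0.32 (adjusted p = 0.529) nor that of -0.16 (adjusted p = 0.408) was called. CCL8 was not above background at either time.

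CXCL1 and CXCL8 belong to the neutrophil-attracting ligands of CXCR1 and CXCR2, of which 5 of 6 were above background at 4 h and 6 of 6 at 24 h. CXCL1 gave 6.35, 6.14 and 5.74 on Ti-Ref after 24 h and 5.09, 5.02, 5.66 and 4.98 on Ti-TMS-PEI. The coated arrays were lower, 3 of them under the background level, while array C lay 0.08 under the lowest Ti-Ref array. The log2 fold change was -0.89 (SE 0.20, adjusted p = 0.0253 by limma) or 1.85-fold lower; the call was lost in 5 of 7 fits that each left out 1 array, where the adjusted p reached 0.0972. At 4 h the signal was 5.12, 5.27, 5.71 and 5.74 on Ti-Ref and 5.38, 5.76, 5.92 and 6.22 on Ti-TMS-PEI, with overlap (log2 fold change 0.36, adjusted p = 0.61).
CXCL8 (interleukin 8) had the second largest log2 fold change of all ligands at 4 h. It gave 8.77, 9.48, 9.39 and 9.04 on Ti-Ref and 9.94, 10.19, 10.23 and 10.35 on Ti-TMS-PEI. All coated arrays were higher, and the log2 fold change was 1.01 (SE 0.17, 95% confidence interval 0.63 to 1.38), which was not called (adjusted p = 0.0941 by limma). After 24 h the values of 7.50, 8.60 and 7.17 on Ti-Ref and of 7.24, 7.09, 8.13 and 7.38 on Ti-TMS-PEI were mixed. Ti-Ref array B and Ti-TMS-PEI array C were the highest of their groups, and the log2 fold change was -0.30 (95% confidence interval -1.09 to 0.49, adjusted p = 0.668).
Of the other neutrophil attractants, none was called. CXCL3 gave 5.32, 5.74, 6.07 and 5.18 on Ti-Ref and 6.38, 6.24, 5.97 and 5.70 on Ti-TMS-PEI at 4 h, and 5.31, 5.55 and 5.99 against 5.62, 5.03, 5.97 and 4.90 at 24 h. CXCL2 gave 4.88, 4.96, 4.91 and 4.93 against 5.44, 5.38, 5.34 and 4.80 at 4 h, and 5.99, 6.24 and 6.22 against 6.57, 6.24, 6.48 and 5.96 at 24 h. For both genes the surfaces overlapped at both times, and the log2 fold changes at 4 h were 0.49 (adjusted p = 0.516) and 0.32 (adjusted p = 0.531). CXCL6, the gene next to CXCL8, gave 5.17, 5.28, 5.47 and 4.90 against 4.98, 4.57, 5.28 and 5.90 at 4 h, and 6.27, 6.44 and 6.50 against 5.54, 5.51, 6.37 and 5.98 at 24 h. Its log2 fold change of -0.55 at 24 h had a raw p of 0.0237 and an adjusted p of 0.132, and Ti-TMS-PEI array C was again the coated array nearest to Ti-Ref. CXCL5 gave 5.31, 4.51, 4.63 and 4.38 against 5.17, 4.52, 4.94 and 4.93 at 4 h, and 5.69, 5.66 and 5.34 against 5.47, 6.29, 5.88 and 5.66 at 24 h, with overlap at both times. CXCL1, CXCL2 and CXCL3 are close paralogs, and the files do not show how well their probes tell them apart.

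CCL5 (RANTES, which draws T cells and monocytes) was above background at both times. At 24 h it gave 7.50, 7.33 and 7.20 on Ti-Ref and 6.59, 7.11, 6.67 and 6.47 on Ti-TMS-PEI. The coated arrays were lower without overlap, array B by 0.09 from the nearest Ti-Ref array. The log2 fold change was -0.63 (SE 0.16, adjusted p = 0.0394 by limma) or 1.55-fold lower, close to the fold threshold; the call was lost in 6 of 7 fits without 1 array, where the adjusted p reached 0.136. None of the 9 leukocyte markers was called at 24 h, and their median log2 fold change was -0.04. It ran from -0.58 for PTPRC (adjusted p = 0.0508) to 0.33 for CSF1R (adjusted p = 0.127) and 0.35 for CD3E (adjusted p = 0.418), with CD14, CD79A, NKG7, CD3D, ITGAM and LYZ between -0.17 and 0.06. The cultures are described as MG-63 cells without other cell types, and the source of the leukocyte marker signals was not tested. At 4 h CCL5 gave 6.41, 5.93, 6.14 and 6.52 against 5.83, 6.08, 6.35 and 6.41, with overlap (log2 fold change -0.08, adjusted p = 0.915).
CCL18, a ligand made mainly by myeloid cells, was the only one with a negative log2 fold change at a raw p under 0.05 at 4 h. Its signal was 4.98, 5.16, 4.74 and 5.08 on Ti-Ref and 4.78, 4.87, 4.60 and 4.45 on Ti-TMS-PEI, with overlap (log2 fold change -0.32, adjusted p = 0.505 by limma). At 24 h it was 4.28, 4.88 and 4.90 against 5.08, 5.04, 4.42 and 4.26, under background. CCL3, CCL3L3, CCL16 and CCL23 were not above background at either time, and CCL3 and CCL3L3 are near-identical copies that probes may not separate.

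CCL20, which draws CCR6-bearing dendritic cells and Th17 cells, was above background at 4 h only. It gave 5.01, 5.45, 6.24 and 5.74 on Ti-Ref and 6.07, 5.72, 7.12 and 7.17 on Ti-TMS-PEI. Ti-TMS-PEI arrays C and D were high while A and B lay within the Ti-Ref range, and the log2 fold change of 0.91 (SE 0.36, 95% confidence interval 0.10 to 1.72) was not called (adjusted p = 0.476). At 24 h it gave 4.07, 3.79 and 3.58 against 3.59, 3.49, 3.72 and 3.58, all under the background level.
The homeostatic ligands, which guide cells in resting tissue, were not called at either time. CXCL12 gave 10.43, 10.55, 10.23 and 10.41 on Ti-Ref and 10.60, 10.35, 10.38 and 10.02 on Ti-TMS-PEI at 4 h, and 10.86, 10.82 and 11.22 against 10.94, 10.65, 10.67 and 10.72 at 24 h. Its log2 fold change was -0.07 at 4 h (95% confidence interval -0.38 to 0.24) and -0.22 at 24 h (-0.52 to 0.07), so both intervals left out a 1.5-fold rise or fall. CXCL16, a transmembrane ligand of CXCR6, gave 8.21, 8.14, 8.81 and 8.87 against 8.41, 8.23, 8.52 and 8.39 at 4 h, and 8.57, 8.50 and 8.80 against 8.86, 9.24, 8.80 and 8.84 at 24 h. The surfaces met at 8.80 after 24 h, and the log2 fold change of 0.31 was not called (adjusted p = 0.201 by limma).
CCL28, a mucosal ligand of CCR10 and CCR3, gave 6.11, 6.17, 5.59 and 5.76 against 5.94, 5.56, 5.79 and 5.77 at 4 h, and 7.43, 7.48 and 6.74 against 7.77, 7.62, 7.53 and 7.50 at 24 h. All coated arrays were higher at 24 h, by as little as 0.02 over Ti-Ref array B, and the log2 fold change of 0.39 was not called (adjusted p = 0.226). CCL27, the skin ligand of CCR10, gave 5.06, 5.22, 5.36 and 5.18 against 5.26, 4.98, 5.08 and 5.20 at 4 h, and 5.96, 6.18 and 5.96 against 6.21, 6.14, 5.82 and 5.96 at 24 h. CCL19, which guides cells to lymph nodes through CCR7, gave 5.06, 5.12, 5.18 and 5.19 against 5.14, 4.90, 5.66 and 5.10 at 4 h, and 6.58, 6.63 and 7.12 against 7.25, 6.94, 7.05 and 6.86 at 24 h. The surfaces of both genes overlapped at both times.
CCL25, the thymus and gut ligand of CCR9, gave 3.89, 4.69, 4.19 and 4.03 against 4.61, 4.42, 4.33 and 4.36 at 4 h, and 5.30, 5.62 and 5.83 against 5.79, 5.94, 5.87 and 5.70 at 24 h. CXCL17, a mucosal chemokine, gave 3.92, 4.03, 3.93 and 3.68 against 4.04, 3.99, 3.84 and 4.59 at 4 h, and 5.52, 5.35 and 6.05 against 5.53, 5.26, 5.40 and 5.41 at 24 h. CX3CL1 (fractalkine, a membrane-bound ligand that also serves adhesion) gave 5.78, 5.31, 5.13 and 5.55 against 5.75, 5.67, 5.62 and 5.67 at 4 h, and 4.75, 5.15 and 4.80 against 4.78, 4.65, 4.92 and 4.79 at 24 h. All 3 genes had overlapping surfaces at both times. Among the ligands not above background at a given time, log2 fold changes ran from -0.36 to 0.52 at 4 h and from -0.47 to 0.19 at 24 h, and none was called.

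**Figure D3:**
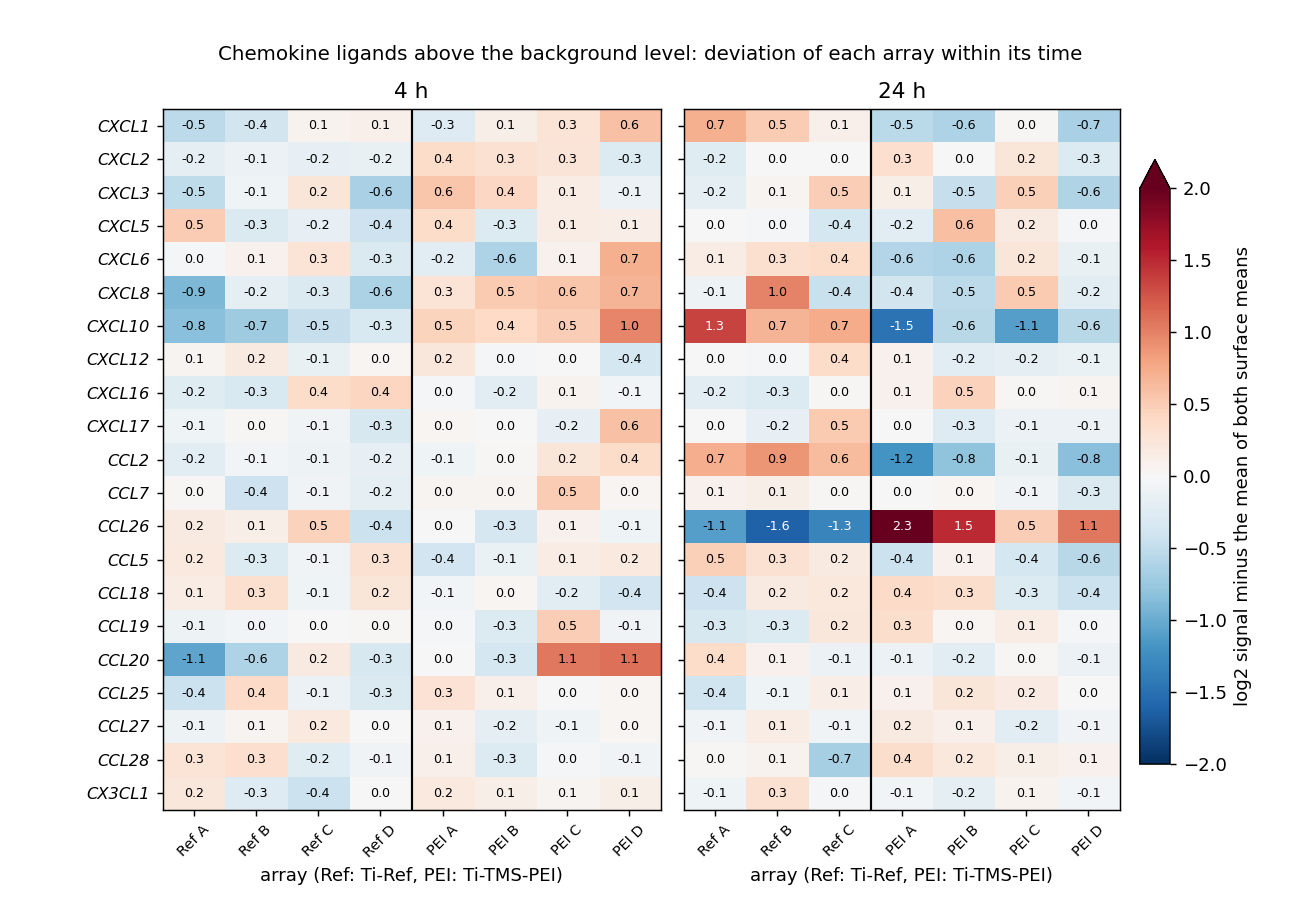
Deviation of every array from the mean of both surface means, on the log2 scale, for the 21 ligands above background, at 4 h (left) and 24 h (right); the colour scale ends at 2.0 and single cells carry their value. CXCL8 and CXCL10 are blue on all Ti-Ref arrays and red on all Ti-TMS-PEI arrays at 4 h, CCL26 shows the same at 24 h, and CXCL10 and CCL2 are red on Ti-Ref and blue on Ti-TMS-PEI at 24 h.

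A limma model of the 4 groups (15 arrays) tested whether the coating effect itself depended on the time. Only effects within a time entered, so a shift between the times cancels, while an unequal scale would not. The quantity tested was the difference, the effect at 24 h minus that at 4 h. The difference was called for 5 of 38 ligands, against 4.78% of all transcript clusters. It was -3.00 for CXCL10 (SE 0.32, adjusted p = 0.000159), 2.85 for CCL26 (SE 0.43, adjusted p = 0.0017) and -1.76 for CCL2 (SE 0.25, adjusted p = 0.00113). It was -1.25 for CXCL1 (adjusted p = 0.026) and -0.89 for CXCL11 (adjusted p = 0.0334), whose calls were lost in 7 and 9 of 15 fits without 1 array. CCL26 was above background at 24 h only, so its effect at 4 h is a difference between dim signals. CXCL11 was not above background in any group, so its value is a difference between dim signals. With the dimmest 25 percent of transcript clusters removed, 4 ligands were called, without CXCL11. For CXCL8 the difference of -1.30 was not called (adjusted p = 0.0763), nor was that of -0.55 for CCL5 (adjusted p = 0.238). The log2 fold changes of the times had opposite signs for 19 of the 38 ligands, but 17 of the 38 were above background at neither time. The share with opposite signs over all transcript clusters was not counted, so this count is not a result about the ligands.

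By receptor group, the median log2 fold change was 0.34 at 4 h and -0.27 at 24 h for the 6 CXCR1 and CXCR2 ligands, and 0.52 and -0.37 for the 3 CXCR3 ligands. It was 0.28 and -0.16 for the 3 CCR2 ligands measured and -0.02 and 0.19 for the 3 eotaxins. In a group of 3 the median is the value of a single gene. For the CXCR3 ligands that gene was CXCL11 at both times, and for the eotaxins CCL11 at 4 h and CCL24 at 24 h. None of CXCL11, CCL11 and CCL24 was above background at either time. The 9 genes CCL1, CCL17, CCL19, CCL20, CCL21, CCL22, CCL25, CCL27 and CCL28 had medians of 0.05 and -0.00. Of the CXCR1 and CXCR2 ligands, 5 of 6 had a positive log2 fold change at 4 h and 2 of 6 at 24 h. The share with a positive log2 fold change over all transcript clusters was not counted, so these counts are not a result about the group.

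Of the chemokine receptors, 21 of 23 were measured and none was called at either time. ACKR3, a scavenger receptor for CXCL12, and XCR1 were above background on all 15 arrays and 14 receptors on none. ACKR3 had means of 10.35 on Ti-Ref and 10.29 on Ti-TMS-PEI at 4 h and of 11.26 and 11.39 at 24 h. CXCR4, the signaling receptor for CXCL12, had 5.39 ± 0.43 and 5.95 ± 0.21 (SD) at 24 h, a log2 fold change of 0.56 (adjusted p = 0.121).
Of 18 measured genes of NF-kappaB signaling, none was called at 4 h, while at 24 h there were 2 higher calls on Ti-TMS-PEI and 1 lower call, against 3.46% and 2.69% of all transcript clusters. IL1B, a cytokine that activates NF-kappaB, was 2.54-fold higher (12.01 ± 0.34 against 10.66 ± 0.42, SD, adjusted p = 0.00917 by limma), and its receptor IL1R1 2.45-fold higher (adjusted p = 0.00317). TNFAIP3, an NF-kappaB target that inhibits the pathway, was 1.54-fold lower (adjusted p = 0.0468).
Of 13 genes of IL-4 and IL-13 signaling, 1 was called higher at 24 h, where 3.46% of all transcript clusters were. IL4R, the receptor chain shared by both cytokines, was 1.59-fold higher (12.57 ± 0.23 on Ti-TMS-PEI against 11.90 ± 0.13, SD, adjusted p = 0.0206). The cytokine genes IL4 and IL13 themselves were above background on none of the 15 arrays. For STAT6 the log2 fold change at 24 h was 0.36 (adjusted p = 0.216 by limma) and for IL13RA1 0.43 (adjusted p = 0.0774). Other genes of the list went the other way, among them JAK1 at -0.36 (adjusted p = 0.0733) and IL2RG at -0.31 (adjusted p = 0.0833). Of 10 interferon signaling genes measured, none was called, and the interferon genes IFNG and IFNB1 were above background on none of the 15 arrays. The largest change at 4 h was that of IRF1, a transcription factor induced by interferon, at -0.78 (9.59 ± 0.11 on Ti-Ref and 8.80 ± 0.21 on Ti-TMS-PEI, SD, n = 4, adjusted p = 0.0873).
Of 14 proteases known to cut chemokines, 3 were higher and 1 lower at 24 h, against the same 3.46% and 2.69% of all transcript clusters. MMP1 was 26.3-fold higher (14.49 ± 0.14 against 9.77 ± 0.38, SD, adjusted p = 6.18e-06 by limma), MMP14 3.03-fold (adjusted p = 0.000288) and ADAM17, which sheds CX3CL1 and CXCL16 from the membrane, 1.51-fold (adjusted p = 0.0123). MMP3 was 1.55-fold lower (adjusted p = 0.031). The median log2 fold change at 24 h was 0.01 for the receptors, 0.06 for the NF-kappaB genes, 0.00 for the IL-4 and IL-13 genes, 0.15 for the interferon genes and 0.11 for the proteases, against -0.00 over all transcript clusters. Of the marker lists for other cells (9 leukocyte, 4 endothelial, 4 epithelial and 2 erythroid genes measured), 1 gene was called. The endothelial cadherin CDH5 was 1.71-fold higher on Ti-TMS-PEI at 24 h (adjusted p = 0.0249 by limma), against 3.46% of all transcript clusters called higher. The other endothelial markers were not called. PECAM1 and KDR were above background on none of the 15 arrays and VWF on 6. On the log2 scale PECAM1 changed by 0.35, KDR by 0.14 and VWF by -0.16 at 24 h.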

How the data were processed

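The authors deposited log2 signals, 1 per transcript cluster and Clariom S array. They summarized the probes in the Transcriptome Analysis Console by SST-RMA (background adjustment, signal space transformation and quantile normalization). Each value was used as deposited. The surfaces were compared with limma 3.58.1 (R 4.3.3) at each time by itself, without covariates, and their interaction with time in a model of all 15 arrays. Each fit covered all 21448 transcript clusters, with Benjamini-Hochberg adjustment over them. The members, the pathway and marker lists and the receptor groups were chosen with earlier results of these data known. Ligands that were called or above background are named with every array, and other pathway genes where called. XCR1, ACKR3, CXCR4, STAT6, IL13RA1, JAK1, IL2RG, IL4, IL13, IRF1, IFNG, IFNB1, PTPRC, CSF1R, CD3E, PECAM1, KDR and VWF fall outside this rule. They were chosen after their values were seen. Of the transcript clusters, 17709 carry 1 symbol and 3739 are unnamed here. Promoter sequences are RefSeq's (GRCh38.p14). The genome build of the array annotation is not given in the sources used here. The fits were tested on simulated data. Alternatives were a replicate block, other variance models, filters, scalings and thresholds, other background levels, and leaving out each array. Tables were handled with pandas 2.3.3 and figures drawn with matplotlib 3.10.9. The precision is limited by the number of arrays, and the SD of replicates had a median of 0.22 (4 h) and 0.18 (24 h).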

Additional observations from a re-analysis of the deposited data

Results flagged for a closer look

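Of 52 groups of 4 arrays examined over the ligands above background, 5 held an array far from the others, where chance flags about 1 group in 20. On Ti-TMS-PEI at 4 h, CCL7 was 5.20 on array C against 4.73 to 4.74 on the others, CXCL10 was 7.15 on array D against 6.56 to 6.66, and CXCL2 was 4.80 on array D against 5.34 to 5.44. On Ti-TMS-PEI at 24 h, CXCL1 was 5.66 on array C against 4.98 to 5.09, and CXCL16 was 9.24 on array B against 8.80 to 8.86. The coating effect differed between the times, by limma's interaction test, for CXCL10 (-3.00), CCL26 (2.85), CCL2 (-1.76), CXCL1 (-1.25) and CXCL11 (-0.89).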

How the results depend on the processing

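The count of ligands called at 4 h was 0 and stayed at 0 without each array in turn, with the replicate block, array weights and a second quantile normalization. It was 1 (CXCL10) with a spread shared over all 15 arrays, with the dimmest 25 percent removed and with arrays centred on the median. It was 2 (CXCL10 and CXCL8) with a trended and robust variance and at an adjusted p under 0.10, and 3 (also CCL20) at an unadjusted p. CCL26 was the 1 ligand called higher at 24 h in every fit run (adjusted p up to 0.0222). The 4 ligands called lower became 2 (CCL2 and CXCL10) with a threshold of 2-fold and 2 to 4 without 1 array; they were 2 without Ti-Ref A, Ti-Ref B, Ti-TMS-PEI A or Ti-TMS-PEI D, and without Ti-TMS-PEI C the 4 were CCL2, CXCL10, CXCL1 and CXCL6. The 5 differences between the times became 3 to 6 without 1 array. They were 3 (CXCL10, CCL26 and CCL2) without Ti-Ref A or B or Ti-TMS-PEI D of 4 h and without Ti-Ref A or B or Ti-TMS-PEI A of 24 h. No result changed sign.

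The labels letter the arrays alike on both surfaces, but arrays of the same letter did not deviate together (correlation of residuals -0.07 to 0.05), so the letters were not taken as pairs. With the letter as a replicate block, 2 ligands were lower at 24 h (CCL2, adjusted p = 0.0355, and CXCL10, adjusted p = 0.0315), CCL26 stayed called (log2 fold change 2.79, adjusted p = 0.0206), and 3 differences between the times were called; CCL5 and CXCL1 had adjusted p = 0.127 and 0.134.

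The 17 and 18 ligands above background became 6 and 9 with the median of all transcript clusters as the level and 8 and 11 with the 99th percentile; without 1 array they were 17 to 19 and 18. The cause of these changes was not tested beyond what each setting does. Taking the lowest instead of the highest transcript cluster of a gene gave no value, since each ligand has 1. With 3 or 4 arrays a surface and signals near background for most ligands, small differences were not detectable.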
